A study of Mus musculus with 6 samples.

Results

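The Notch pathway genes measured here are the receptors Notch1, Notch2 and Notch3, the ligands Jag1, Jag2 and Dll1, the receptor-modifying enzyme Lfng, and the transcriptional repressors Hes1, Hey1 and Hes6. They were chosen by symbol, as every probe set annotated to 1 of these 10 symbols and to no other, which gave 17 of the 22626 probe sets on the array. The cochlea, which turns sound into nerve signals, was taken from males of DBA/2J, inbred mice that carry a hearing-loss allele of Cdh23 and become deaf early in adult life, and its total RNA was measured. There were 3 samples from mice aged 36 weeks and 3 from mice aged 7 weeks, each hybridised to 1 single-colour Affymetrix array. Strain and sex were the same in both ages, and no treatment other than age was labelled. The labels do not say how many cochleae went into a sample or whether the samples came from separate animals, so the p-values below measure the spread between these samples, which may be technical.

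Notch receptors are cut on ligand contact, and the freed intracellular domain joins the DNA-binding protein RBPJ to switch on repressors of the Hes and Hey families. In the developing cochlea, Notch ligands on nascent hair cells keep their neighbours in the supporting cell fate, a pattern known as lateral inhibition. In adult tissues the same genes also serve blood vessels, mural cells, epithelia, glia and blood cells.

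Values are the deposited linear signals, and differences are log2(signal + 50) at 36 weeks minus that at 7 weeks, with the standard error (SE) of the fit. Probe sets whose mean signal over the 6 arrays lay above the 40th percentile, a signal of 594, were tested together with limma, and an adjusted p under 0.05 was the threshold. Of the 17 member probe sets 12 passed this filter. The other 5, among them both probe sets of Jag1, did not, and their values are given without a test.

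In bulk signal, the members differed little between the ages. Of the 12 tested probe sets, 1 was higher at 36 weeks (Lfng), 2 were lower (Notch2 and Notch3) and 9 did not pass, so 3 of 12 were called where 34.4% of all 13575 tested probe sets were called. By direction, 16.7% of all tested probe sets were called higher and 17.7% lower. The member differences lay between -0.42 and 0.51, with a median of 0.12, against a median of 0.02 over all tested probe sets. The median size of the difference without its sign was 0.24 for the members and 0.32 over all tested probe sets. The 36-week and 7-week signals did not overlap for 4 of the 12 (Lfng, Jag2, Notch2 and Notch3), where 47.8% of all tested probe sets showed no overlap. The members were thus called and stood apart no more often than probe sets at large. Of all calls, 48.6% were higher at 36 weeks as deposited and 36% with each array centred on its median, a scaling that shifted the median difference of all tested probe sets by -0.102.

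**Figure D1:**
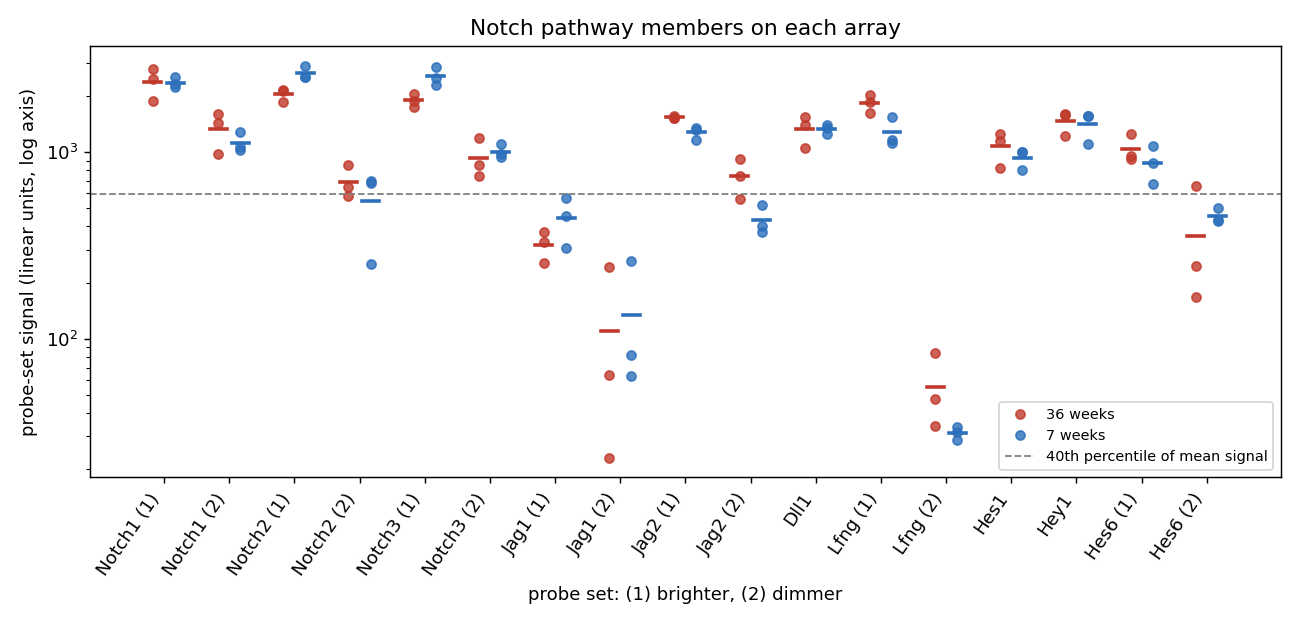
Signal of each of the 17 member probe sets (linear units on a log axis) on the 3 arrays of 36 weeks (red, left of each pair) and the 3 arrays of 7 weeks (blue), with a line at each mean; the dashed line is the filter at a signal of 594. The ages stand apart for Lfng, for the brighter probe sets of Notch2 and Notch3, and for both probe sets of Jag2, whereas both probe sets of Jag1 lie below the filter.

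Among the receptors, Notch2 and Notch3 were lower at 36 weeks by their brighter probe set, and Notch1 was not called. Notch2, a receptor expressed widely in epithelia and mesenchyme, had signals of 2113.7, 1853.9 and 2137.0 at 36 weeks, against 2531.5, 2523.4 and 2906.7 at 7 weeks. Every 36-week array lay below every 7-week array. The means were 2035 ± 157 at 36 weeks and 2654 ± 219 at 7 weeks (SD, n = 3 each), a log2 difference of -0.37 ± 0.12 SE with a limma adjusted p of 0.0311. The dimmer probe set of Notch2 gave 647.5, 850.9 and 579.5 at 36 weeks and 684.0, 702.3 and 252.6 at 7 weeks, and here the ages overlapped. Its log2 difference was 0.41 ± 0.38, opposite in sign to that of the brighter probe set and not past the threshold (limma adjusted p of 0.429). The mean of both probe sets of Notch2 had a log2 difference of 0.02. The call of the brighter probe set was lost without 36-week replicate 1 or 2 or 7-week replicate 2 or 3 (limma adjusted p of 0.0504, 0.0987, 0.0512 and 0.104).

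Notch3, the receptor known from pericytes and arterial smooth muscle, had signals of 2040.6, 1750.4 and 1878.3 at 36 weeks, against 2290.1, 2851.5 and 2488.6 at 7 weeks. Again no 36-week array reached the lowest 7-week array. The means were 1890 ± 145 at 36 weeks and 2543 ± 285 at 7 weeks (SD, n = 3 each), a log2 difference of -0.42 ± 0.13 SE with a limma adjusted p of 0.0262. This probe set has a name ending in _s_at, a kind that can bind more than 1 transcript, so its identity is less certain. The other probe set of Notch3 gave 1192.4, 740.1 and 854.9 at 36 weeks and 975.8, 1098.2 and 943.9 at 7 weeks, with overlapping ages, and its log2 difference of -0.13 ± 0.21 did not pass. The mean of both had a difference of -0.27 with a limma adjusted p of 0.197, and the call of the brighter probe set was lost without 36-week replicate 2 or 3 or 7-week replicate 2 or 3 (limma adjusted p of 0.0817, 0.061, 0.0994 and 0.0543) and with the replicate number as a block (0.0508). Of 6 tested markers of pericytes and smooth muscle, 4 were lower at 36 weeks and the other 2 did not pass, with a median of -0.66. The summed signal of all 10 markers in this list, those below the filter included, lay between 18988 and 21079 at 36 weeks. At 7 weeks it lay between 29479 and 33083, and its part in the Notch3 difference was not tested. In such bulk RNA on scaled arrays, fewer cells of a type, less RNA per cell and a larger share of RNA from other tissue cannot be told apart.

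Notch1, the receptor of lateral inhibition in the developing organ of Corti and of many other tissues, had signals of 2787.7, 2472.5 and 1870.3 at 36 weeks and 2509.0, 2229.2 and 2308.4 at 7 weeks. The 36-week arrays spanned a range that held all 3 of the 7-week arrays. The means were 2377 ± 466 at 36 weeks and 2349 ± 144 at 7 weeks (SD, n = 3 each), and the 95% interval of the log2 difference ran from -0.33 to 0.33. The dimmer Notch1 probe set also overlapped between the ages, at 977.5, 1591.4 and 1431.1 for 36 weeks and 1023.7, 1066.8 and 1277.0 for 7 weeks, with a difference of 0.22 ± 0.20. By the root mean square difference of log2 profiles centred on their mean over the 6 arrays, the genes least distant from Notch1 among 8555 were Tor3a (0.037), Brs3 (0.039) and G3bp1 (0.047). Because Notch1 hardly differed between the ages, this nearness rests mainly on the spread between arrays and does not bear on shared regulation.

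The ligands were not called. Jag2, a ligand made by developing hair cells, came closest, with signals of 1559.4, 1528.7 and 1529.0 at 36 weeks and 1344.4, 1166.2 and 1311.8 at 7 weeks. All 3 of the 36-week arrays lay above all 3 of the 7-week arrays, yet the log2 difference of 0.27 ± 0.13 did not pass (limma adjusted p of 0.153, 95% interval -0.03 to 0.56). The second Jag2 probe set, with a mean just under the filter at the 39.6th percentile, was also apart, with 916.7, 560.2 and 746.0 at 36 weeks and 371.0, 520.7 and 401.8 at 7 weeks, a ratio of means of 1.72. The mean of the 2 probe sets of Jag2 had a log2 difference of 0.48 and a limma adjusted p of 0.0485, which falls just past the threshold. Without a filter, the second probe set alone had an adjusted p of 0.128 by limma.

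Dll1, another ligand of nascent hair cells, had signals of 1395.3, 1537.1 and 1045.2 at 36 weeks and 1400.6, 1346.3 and 1244.5 at 7 weeks. The 36-week values lay on both sides of the 7-week values, with a log2 difference of -0.02 ± 0.17 and a 95% interval of -0.39 to 0.35. Jag1, the ligand of prosensory and supporting cells, was dim, at 329.4, 256.0 and 373.0 for 36 weeks and 570.1, 304.3 and 454.1 for 7 weeks by its brighter probe set, whose mean stood at the 28.4th percentile of the array. Its ages overlapped, as did those of the dimmer probe set, whose signals ranged from 23 to 242.1 at 36 weeks and from 62.9 to 259.4 at 7 weeks. With no filter, the difference of the brighter Jag1 probe set was -0.39, with an interval of -1.17 to 0.39 that left its direction unresolved.

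Lfng, the Golgi glycosyltransferase lunatic fringe, which adds N-acetylglucosamine to fucose on Notch receptors and so alters their response to ligands, was the member that rose. Its signals were 2010.5, 1857.7 and 1614.1 at 36 weeks, against 1156.5, 1121.2 and 1541.7 at 7 weeks. The lowest 36-week array lay only slightly above the highest 7-week array, replicate 3. The means were 1827 ± 200 at 36 weeks and 1273 ± 233 at 7 weeks (SD, n = 3 each), a ratio of 1.44 and a log2 difference of 0.51 ± 0.16 SE with a limma adjusted p of 0.0313. The second Lfng probe set was near the floor of the array, with 84.3, 47.6 and 33.9 at 36 weeks and 31.6, 28.8 and 33.8 at 7 weeks, and adds no usable level. The call of Lfng was lost without 36-week replicate 1 or 2 or 7-week replicate 1 or 2 (limma adjusted p of 0.104, 0.08, 0.0879 and 0.101), with the replicate number as a block (0.057), with each array centred on its median (0.0639) and with no filter (0.0551). It was also lost in the mean of both probe sets (limma adjusted p of 0.152), but that mean takes in the probe set near the floor and says little about the call.

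The promoter of Lfng is shown because Lfng was the member that rose and its promoter, among those of the members matched, was the one with the RBPJ core letters. RefSeq promoter entries (build GRCm38.p6, 250 bases before to 50 after each start) were matched for 8 of the 10 members, and Hes1 and Hey1 had none in the table. The RBPJ core TGGGAA, searched on both strands, was in 25.6% of all 32851 promoter windows. The core with 1 more base, GTGGGAA, was in 6.38% of them. Among the 8 members both forms were found in Lfng alone, and any part of these letters in its rise was not tested. In Lfng the longer form starts 109 bases before the gene's start and overlaps by 3 bases a CACGTG, an E-box bound by many basic helix-loop-helix proteins. A second core, on the other strand, starts at 135 bases. The 250 bases before the start of Lfng, chr5:140607091-140607340 on the plus strand, are given with the RBPJ core matches and the E-box in capitals.
Lfng: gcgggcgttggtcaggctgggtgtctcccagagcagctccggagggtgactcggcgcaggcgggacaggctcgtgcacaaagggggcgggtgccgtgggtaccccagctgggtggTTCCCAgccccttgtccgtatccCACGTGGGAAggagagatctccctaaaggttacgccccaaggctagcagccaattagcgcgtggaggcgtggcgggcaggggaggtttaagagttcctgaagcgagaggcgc
For comparison, short stretches are given from Hes5 and Hey2, known Notch target genes related to Hes1 and Hey1. Both hold GTGGGAA, but not every pathway gene searched did. Nrarp held a CACGTG 108 bases before its start and neither RBPJ form. Heyl gave no match, and whether it had a promoter entry was not recorded. A second GTGGGAA of Hey2, which spans its start from 4 bases before to 3 bases after, is not printed. GTGGGAA is in capitals as read on either strand: Hes5 at chr4:154960680-154960720 (plus strand) and chr4:154960823-154960863 (plus strand), and Hey2 at chr10:30842967-30843007 (minus strand).
Hes5, distal: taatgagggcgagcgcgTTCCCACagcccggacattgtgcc
Hes5, proximal: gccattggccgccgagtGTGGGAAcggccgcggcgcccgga
Hey2: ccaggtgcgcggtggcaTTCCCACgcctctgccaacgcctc
The E-box was in 7.15% of all windows and, among the members, in Lfng. The related letters CACGAG were in 6.47% of all windows and in Lfng and Notch3. CACGCG, which holds letters common in GC-rich promoters, was in 9.27% of all windows and in Dll1, Jag1, Jag2, Lfng and Notch2. Base composition was not matched in these shares, and a match is a run of letters, not a shown binding site.

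The transcriptional readouts of the pathway were not called. Hes1, the repressor that Notch signalling induces in most tissues, had signals of 817.9, 1251.1 and 1144.5 at 36 weeks and 1002.5, 797.2 and 998.9 at 7 weeks. The lowest 36-week value lay within the 7-week range, and the log2 difference was 0.18 ± 0.20 with a 95% interval of -0.28 to 0.63. Hey1, a related repressor that Notch also induces in vessels, had 1599.1, 1223.6 and 1585.0 at 36 weeks and 1569.4, 1555.6 and 1110.4 at 7 weeks. One array of each age was lower than the other arrays of Hey1, and the difference was 0.06 ± 0.18 with an interval of -0.33 to 0.46. With 3 arrays per age, changes of Hes1 or Hey1 within these intervals were left unresolved. No smallest detectable change was computed.

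Hes6, a family member that in mouse neural cells opposes Hes1, had 921.1, 956.1 and 1255.4 at 36 weeks and 675.3, 869.1 and 1079.7 at 7 weeks. The ages overlapped, and the log2 difference was 0.25 ± 0.22 with a limma adjusted p of 0.401. This probe set, named with _x_at, can also bind related transcripts. A dimmer Hes6 probe set was below the filter, at 166.9, 655.8 and 244.9 for 36 weeks and 500.5, 428.1 and 434.6 for 7 weeks, so that the 36-week arrays lay on both sides of the 7-week arrays. The genes with profiles least distant from Hes1, by the same measure as for Notch1, were Rabl3 (0.044), Rnf166 (0.067) and Ccdc28a (0.073). Hes1 was not called, and this nearness likewise does not bear on shared regulation. Jag1 was not tested and so was given no such neighbours.

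The rest of the pathway was read from 54 further genes, of which 46 had a probe set with 1 symbol and 38 were tested, each by its brightest tested probe set. Of these 38, 5 were higher at 36 weeks, 4 were lower and 29 did not pass, with a median difference of 0.07, where 35.1% of all 8555 tested genes were called, 17.5% higher and 17.6% lower. Among those called, Neurl1a, Dlk1, Dtx1 and Furin were between 2.03-fold and 2.68-fold higher and Dtx2 was lower by 1.27 on the log2 scale, while the other called genes differed less.

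Of 11 tested genes of trafficking and turnover, 3 were higher, 1 was lower and 7 did not pass. Neurl1a, a ubiquitin ligase that acts on Notch ligands, had 2548.6, 2437.1 and 2553.3 at 36 weeks, against 992.1, 953.1 and 863.9 at 7 weeks, a log2 difference of 1.38 ± 0.13. Its second tested probe set overlapped between the ages, at 737 ± 215 at 36 weeks and 476 ± 130 at 7 weeks (SD, n = 3 each). This one did not pass by the fit over all probe sets (limma adjusted p of 0.201). The dimmer Neurl1a probe sets, below the filter, also overlapped, with means of 306 and 282 at 36 weeks and 249 and 270 at 7 weeks. Dtx1, a deltex protein that binds the Notch intracellular domain, was at 2628.3, 2861.9 and 2841.5 for 36 weeks, against 1332.4, 1006.1 and 1318.8 for 7 weeks, a difference of 1.17 ± 0.14. Dtx3, a deltex family member, rose by 0.65 ± 0.10. By the brightest probe set of each, the ages were far apart for these 3 genes. Their limma adjusted p-values were 1.76e-05, 0.000111 and 0.000533. Dtx2 was lower by its brighter probe set, at 210.7, 330.1 and 651.0 for 36 weeks and 977.2, 888.4 and 958.9 for 7 weeks, with a difference of -1.27 ± 0.36. That Dtx2 probe set is also of the _x_at kind, and its call (limma adjusted p of 0.0191) was lost without any 1 of the 7-week replicates (0.06, 0.0518 and 0.0595). The dimmer Dtx2 probe set, below the filter, was not lower, with means of 187 at 36 weeks and 148 at 7 weeks and overlapping ages. Numb, the endocytic inhibitor of Notch, and Nrarp, a feedback inhibitor, had differences of -0.08 and 0.03 that did not pass.

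Among other receptors and ligands, 1 of 5 was higher. Dlk1, a Delta-like membrane protein that lacks the receptor-binding domain of true ligands, was at 1877.2, 2083.6 and 2074.2 for 36 weeks, against 734.2, 752.3 and 827.9 for 7 weeks. The ages were far apart, with a log2 difference of 1.33 ± 0.14 and a limma adjusted p of 5.35e-05, by an _s_at probe set. Notch4 and Dll4, the endothelial receptor and ligand, had differences of 0.10 ± 0.23 and -0.58 ± 0.47, neither past the threshold. Of 12 tested endothelial markers, 1 was higher and 11 did not pass, with a median of 0.04.

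In the cleavage group, 1 of 7 was higher, 1 was lower and 5 did not pass. Furin, the convertase that makes the first cut in the Notch receptor among many other substrates, had 3946.1, 3827.3 and 4601.5 at 36 weeks, against 2704.8, 1613.5 and 1788.4 at 7 weeks, a log2 difference of 1.03 ± 0.17 with a limma adjusted p of 0.00116. Psenen, a subunit of gamma-secretase, was at 3266.7, 3679.5 and 4002.4 for 36 weeks, against 4819.4, 5485.5 and 4592.1 for 7 weeks, a difference of -0.44 ± 0.11 with a limma adjusted p of 0.0102. In both genes the ages did not overlap. Adam10, the protease of the second cut, differed by -0.07 ± 0.14, and Ncstn and Aph1a, other gamma-secretase subunits, by 0.35 ± 0.14 and -0.30 ± 0.12, none of them past the threshold.

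Of 11 tested genes of the nuclear complex, 2 were lower and 9 did not pass. Snw1, a splicing protein that also joins the Notch transcription complex, was at 2004.7, 2471.6 and 2138.1 for 36 weeks and 2877.0, 3197.1 and 3002.7 for 7 weeks, a log2 difference of -0.45 ± 0.12 with a limma adjusted p of 0.0122. Its second tested probe set, with overlapping ages and a difference of -0.36 ± 0.26, did not pass (limma adjusted p of 0.304). Kat2b, a histone acetyltransferase, was at 4272.3, 6787.0 and 5160.2 for 36 weeks, against 7194.6, 7540.4 and 7431.9 for 7 weeks, a difference of -0.47 ± 0.14 with a limma adjusted p of 0.0252. By the brighter probe set of each, the ages of both genes stood apart. The call of Kat2b, however, was lost without 36-week replicate 1 or 3 or 7-week replicate 2 or 3 (limma adjusted p of 0.0741, 0.0659, 0.0728 and 0.0624) and with no intensity trend (0.0798). The called Kat2b probe set is of the _s_at kind. A dimmer Kat2b probe set, below the filter, had means of 408 at 36 weeks and 383 at 7 weeks, with overlapping ages. Rbpj itself, at 2391 ± 84 for 36 weeks and 2267 ± 146 for 7 weeks (SD, n = 3 each), differed by 0.08 ± 0.11 and did not pass.

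The 3 tested genes of sugar modification besides Lfng did not pass by limma by their brightest probe set, among them Pofut1, which adds the fucose that Lfng extends, with a difference of 0.16 ± 0.16, and Poglut1, which adds glucose, with -0.32 ± 0.14. The probe sets of Rfng, radical fringe, which acts on the same sugar as Lfng, disagreed. The brighter one overlapped between the ages, at 3524.9, 2871.2 and 3252.1 for 36 weeks and 2816.1, 3279.0 and 3156.3 for 7 weeks, with a log2 difference of 0.06 ± 0.11 and a limma adjusted p of 0.731. The dimmer one was higher, at 1785.9, 1230.3 and 1581.2 for 36 weeks, against 725.5, 537.0 and 873.6 for 7 weeks, with no overlap, a log2 difference of 1.06 ± 0.22 and a limma adjusted p of 0.00353. Rfng is not among the 5 genes counted as higher, since each gene was counted by its brightest tested probe set. Of 6 other Hes and Hey genes only Heyl was bright enough to test, and its difference of -0.31 ± 0.21 did not pass. Hes5, the classical target in cochlear supporting cells, was at 393.1, 58.1 and 152.3 for 36 weeks and 192.3, 136.0 and 142.3 for 7 weeks. Its level was dim at both ages, at the 15.1th percentile of the array.

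**Figure D2:**
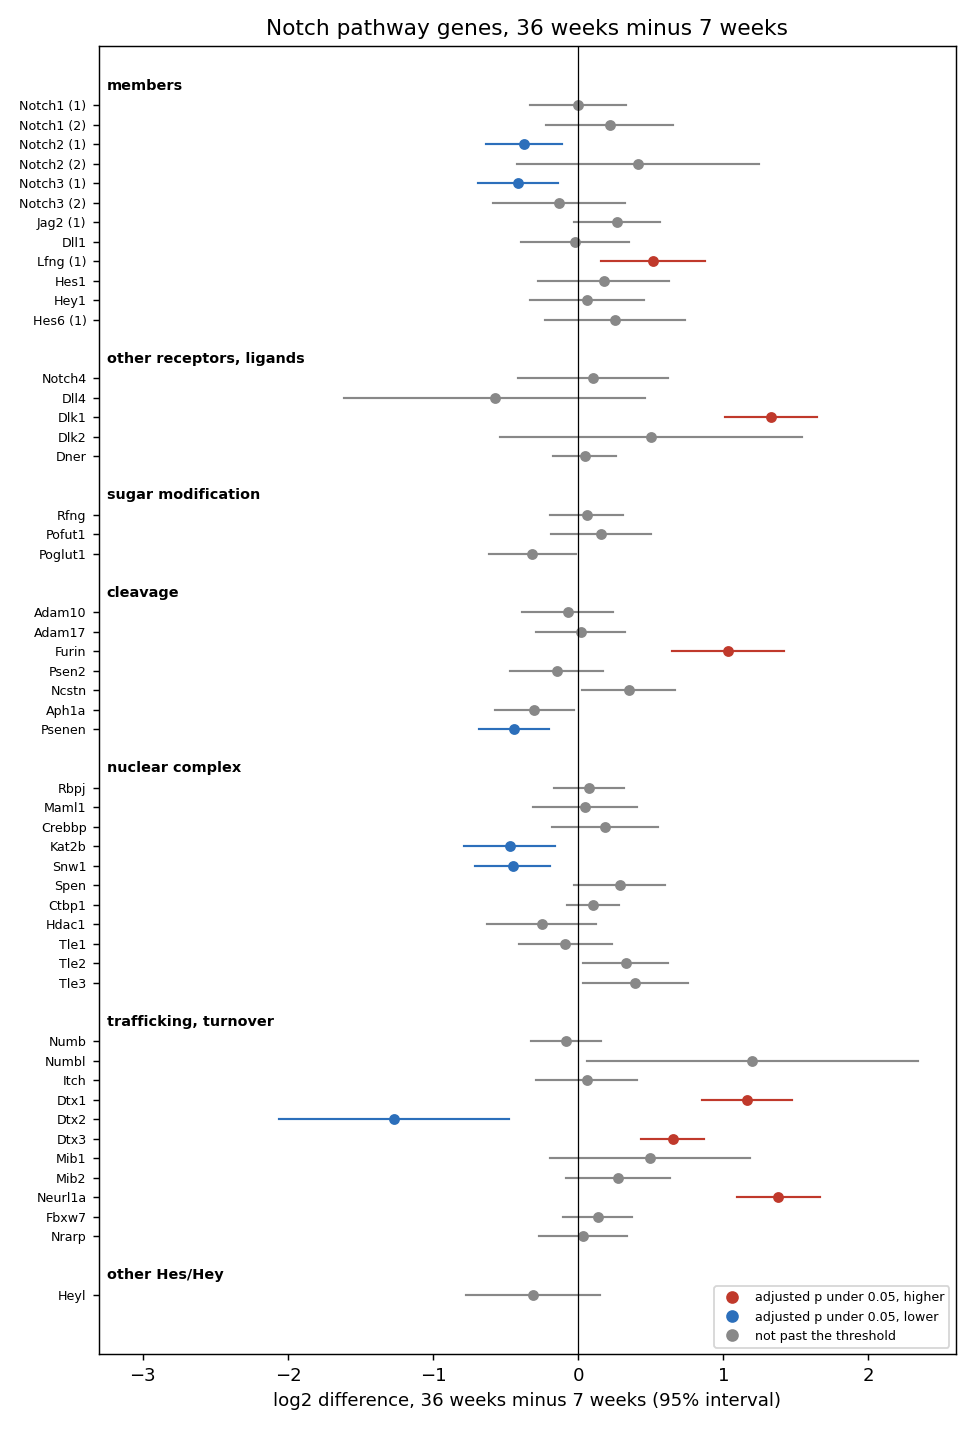
Log2 difference, 36 weeks minus 7 weeks, with its 95% interval, for the 12 tested member probe sets (1 marks the brighter and 2 the dimmer of a gene) and the 38 other tested pathway genes, grouped by role; red marks genes called higher, blue genes called lower and grey genes not past the threshold. The intervals of the member probe sets include 0 except those of Lfng and of the brighter probe sets of Notch2 and Notch3, and the called points farthest from 0 are Neurl1a, Dlk1, Dtx1 and Furin on the higher side and Dtx2 on the lower side.

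The tissue label was checked against markers, and the arrays carried strong signals of cochlear and of other tissue. Spiral ligament genes such as Coch and Otos had means of 21556 and 13801 at 36 weeks and 82144 and 73912 at 7 weeks, whereas 9 of 14 hair cell markers with a probe set passed the filter, 4 of them lower and 5 not past the test (median -0.08). No marker was at 0, since the lowest signal in the whole table was 0.6. Of 12 tested supporting cell markers 9 were lower, 1 (Slc1a3) was higher and 2 did not pass, with a median of -1.06. The summed signal of the 15 supporting cell markers with a probe set was 31456 to 34671 at 36 weeks and 117778 to 121883 at 7 weeks. All 7 spiral ligament markers were lower (median -2.00), as were 6 of 7 Schwann cell and myelin markers (median -0.63). In the other direction, 14 of 14 granulocyte markers (median 3.77), 9 of 10 cerebellum and brain markers (median 1.82) and 7 of 11 mucosal epithelium markers (median 1.95, with Epcam lower) were higher at 36 weeks. The summed signal of the granulocyte list was 706985 to 751643 at 36 weeks and 50793 to 55575 at 7 weeks, and that of the brain list 106473 to 111418 at 36 weeks and 49843 to 52917 at 7 weeks. The summed signal of the mucosal list was 439955 to 471166 at 36 weeks and 81160 to 83039 at 7 weeks. The summed signal of the 10 Notch members, each by its brighter probe set, was 14432 to 15575 at 36 weeks and 14764 to 15445 at 7 weeks, and these ranges overlapped. That sum joins opposite directions: without overlap between the ages, Lfng and Jag2 were higher and Notch2 and Notch3 lower at 36 weeks. The part of these marker lists in the differences of Lfng, Notch2, Dlk1, Neurl1a, Dtx1, Dtx3, Furin and Rfng was not tested. Nor was it tested for the members that were not called or for the overlapping member sum. A similar bulk signal at both ages does not show that the level within any cell type stayed the same.

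**Figure D3:**
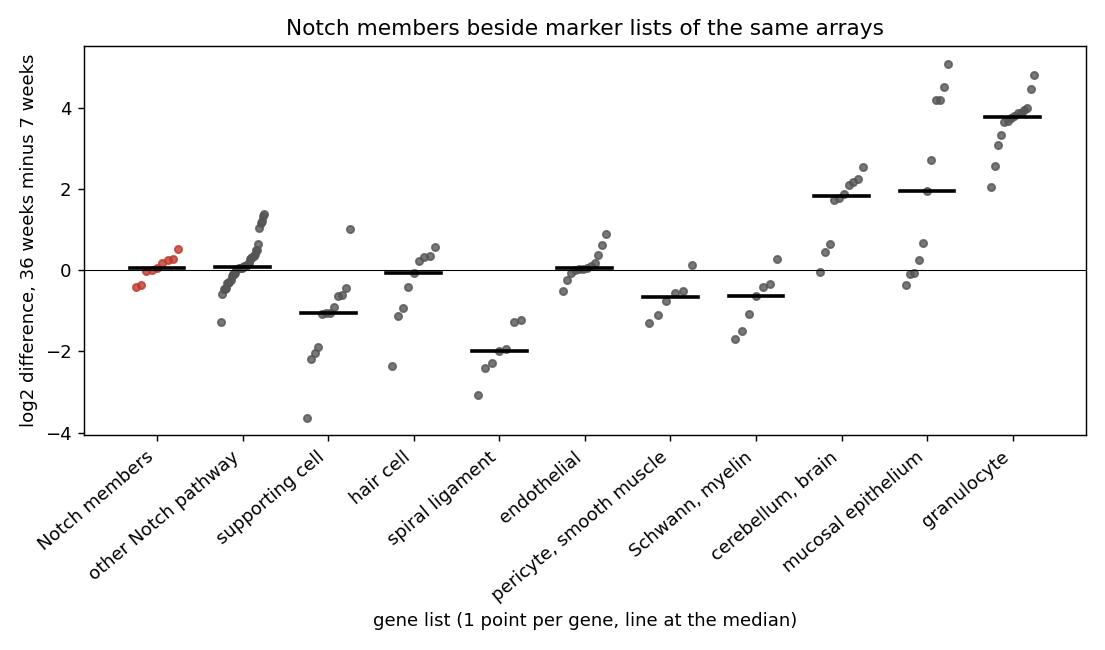
Log2 difference, 36 weeks minus 7 weeks, of each tested gene (points, line at the median) in the Notch member list (red), the other Notch pathway genes and 9 marker lists. The Notch members lie between -0.42 and 0.51, while the supporting cell list has a median of -1.06 and the granulocyte list a median of 3.77.

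**Figure D4:**
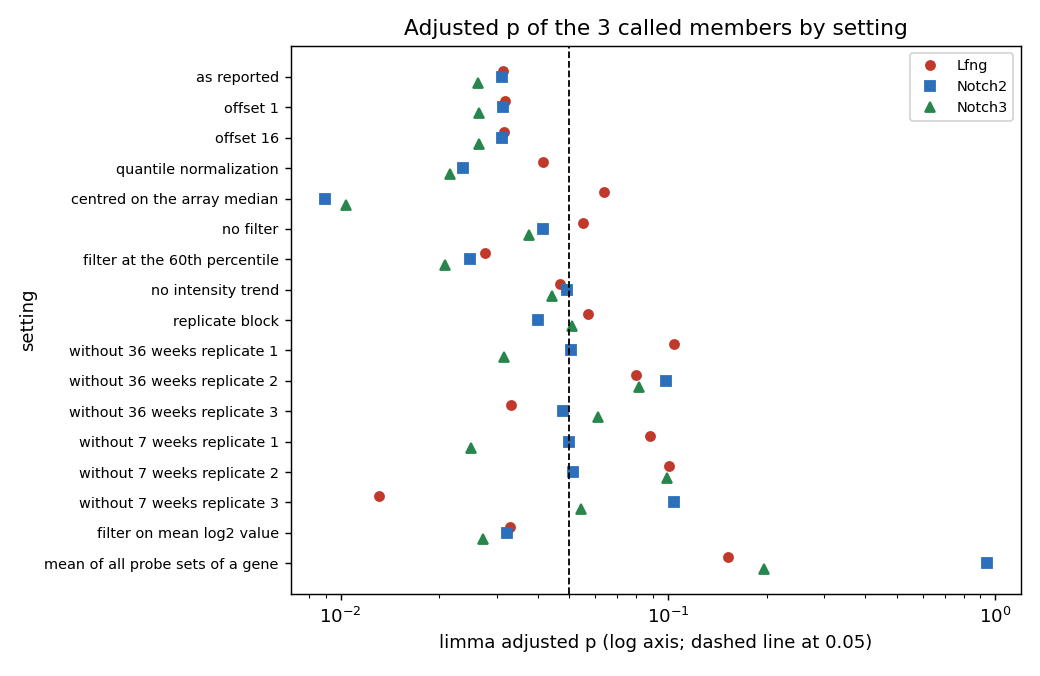
Limma adjusted p (log axis) of Lfng, Notch2 and Notch3 as reported and under each alternative setting, with a dashed line at 0.05. Each of the 3 genes lies beyond the line in 4 of the 6 settings that leave out 1 array. All 3 lie beyond it when the probe sets of a gene, those below the filter included, are averaged. For Lfng that average takes in a probe set near the floor of the array.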

How the data were processed

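Per the labels' protocols, cochlear RNA was extracted with TRIzol, amplified to biotin-labelled cRNA and hybridised to Affymetrix arrays. The deposited values are linear intensity values per probe set. Which software summarised the probes was not given in the sources used here. All 6 arrays shared a trimmed mean, 1490 to 1493 without the lowest and highest 2%, so they appear to have been scaled and signals are relative.

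Of 22626 probe sets, 20380 had 1 symbol in the platform annotation, 691 had several and 1555 had none. All 17 member probe sets were found by Entrez identifier in the RefSeq gene table.

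The 13575 probe sets with a mean signal above the 40th percentile were fitted as log2(signal + 50) in limma 3.58.1 (R 4.3.3; lmFit, then eBayes with an intensity trend), 36 weeks minus 7 weeks, unpaired, two-sided, with Benjamini-Hochberg adjustment over all of them. The offset understates changes of dim probe sets. The test was tried on simulated data with added differences larger than those of the members, so that trial does not cover differences of their size. The submitters compared all 9 pairs of arrays. An exact permutation test of 3 against 3 arrays cannot go below 0.1 and was not used. The depth of an array has no count, so the number of arrays limits the precision. At most 0.0442% of values were identical between any 2 arrays.

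Named were all members, the pathway genes past the threshold, the 2 genes with the smallest p in each pathway list, the 3 nearest profiles, and Coch and Otos as the 2 of smallest p in their marker list; the other marker lists are given mainly as counts. Rfng, Numb, Nrarp, Adam10, Ncstn, Aph1a, Rbpj, Notch4, Hes3, Hes5, Hey2, Maml2, Mfng, Slc1a3 and Epcam were named beyond this rule after their values were seen. The members and lists were chosen with earlier results of these data known. Figures were drawn with Python 3.11.15 and matplotlib 3.10.9.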

Additional observations from a re-analysis of the deposited data

How the results depend on the processing

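The 3 member calls lay near the threshold. The count of members higher at 36 weeks was 0 with each array centred on its median, with no filter and with the replicate block (1, 2 and 1 at an unadjusted limma p under 0.05), and 0 when a call needed all 9 pairs in one direction and a 1.5-fold difference. The count lower was 1 with the replicate block, 0 under the 9-pair rule and 0 in the average over a gene's probe sets (0 at an unadjusted p). In that average, which takes in probe sets below the filter, the 1 member higher was Jag2 in place of Lfng. With single arrays left out, the member counts ranged from 0 to 1 higher and 0 to 2 lower (1 to 2 higher and 2 lower at an unadjusted p), and the other pathway genes lower from 2 to 4. Under the 9-pair rule 1496 of all probe sets were lower and 1 pathway gene was lower. Counted by gene, 1493 were higher and 1509 lower, because fewer features were counted. No pairing by replicate number was visible: deviations from the age means of same-numbered arrays correlated at 0.0488, -0.0103 and -0.00206. Over all 9 pairs these correlations ran from -0.0434 to 0.0488. Such values cannot show whether same-numbered arrays were handled together.

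Directions turned for uncalled members with differences near 0. Hey1 was -0.04 with median centring and -0.10 to 0.18 with single arrays left out, Notch1 was 0.11 in the mean of its probe sets and -0.12 to 0.16 with single arrays left out, and Dll1 was -0.13 to 0.14. The second probe sets of Notch2 and Notch3 ranged from -0.02 to 0.64 and from -0.32 to 0.01. In the mean of all probe sets Hes6 was -0.12 and Notch2, a called member, was 0.02. Beyond what their construction shows, the causes were not tested. With the 60th percentile filter, 8 member probe sets were tested. A filter on the mean log2 value, added after seeing the data, left the member counts at 1 and 2.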

Other observations

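Several pathway genes were below the filter and were not tested. Hes3, a repressor of the Hes family, was at 89.5, 216.8 and 255.7 for 36 weeks and 55.2, 52.7 and 74.5 for 7 weeks. Maml2, a mastermind coactivator, was at 116.1, 77.4 and 83.5 for 36 weeks and 35.9, 62.3 and 63.1 for 7 weeks. In both genes the ages stood apart at signals near the floor of the array. Hey2, a repressor known from pillar cells of the developing cochlea, was at 43.1, 121.9 and 294.2 for 36 weeks and 356.2, 244.7 and 396.0 for 7 weeks, with overlapping ages. Mfng, manic fringe, which acts on the same sugar as Lfng, was at 673.2, 816.7 and 496.2 for 36 weeks and 172.1, 773.7 and 329.3 for 7 weeks, also overlapping.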
